A study of Saccharomyces cerevisiae with 3 samples.

Results

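The mitochondrial ribosomal protein strains are the deletion strains of genes whose annotated symbol is MRPL, MRPS, RSM or MRP followed by a number, or IMG1 or IMG2. The rule found 67 genes of 5325 named on the array, with 166 probes of 18794, and all 67 had a value on all 3 arrays and were tested, of 5204 genes tested in all. The large subunit accounted for 40 genes and the small subunit for 26. MRP8 matched by its symbol, but it carries no mitoribosome name in the RefSeq gene table, and it was placed in neither subunit. RSM22 also has no such name there and was counted with the small subunit. MRP4 and RSM26 were not analysed here.

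The mitochondrial ribosome is built of a large subunit, which joins amino acids and holds the exit tunnel for the new chain, and a small subunit, which binds the mRNA and reads its codons. In budding yeast its proteins are encoded in the nucleus, apart from Var1, and are imported to meet the ribosomal RNAs made in the organelle. The ribosome makes the few membrane proteins of the respiratory chain and ATP synthase that mitochondrial DNA encodes. Yeast that cannot translate in mitochondria does not respire and often loses its mitochondrial DNA, but it can grow by fermentation as a small colony called a petite.

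The data came from a genetic interaction screen of CIN8, which encodes a kinesin of the mitotic spindle. A pool of 5896 heterozygous diploid deletion strains of Saccharomyces cerevisiae was transformed so that URA3 took the place of CIN8, and it was then sporulated. The double-mutant haploids, which carried a library deletion and cin8D::URA3, grew on medium without uracil. The single-mutant haploids, which carried the library deletion alone, grew with 5-FOA (5-fluoroorotic acid), a compound toxic to URA3 cells, at 0.1, 0.15 and 0.2% in experiments 1, 2 and 3. Both pools of each experiment were harvested after 2 days at 30 °C and were compared on 1 array, with the double mutants in Cy3 and the single mutants in Cy5. The tags that identify each strain were amplified from genomic DNA, per the sample descriptions, although the molecule is recorded as total RNA. Whether each experiment began from its own transformation and sporulation is not given in the sources used here. The p-values therefore cover the spread of these 3 arrays, and that spread may be technical.

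Each value is a log2 ratio between the pools, centred on the array median of its kind of tag. Each strain has 2 tags, here named A and B, and a strain value is the mean of its tags. Where an error is given as ±, it is the SD over the 3 arrays. The direction of the deposited ratio is not given in the sources used here. The strains of the uracil biosynthesis genes URA1, URA2, URA4 and URA5, which cannot make uracil, had means of 2.70 to 5.54, whereas the strain of CIN8 itself had a mean of -2.23 ± 0.26. The strain of KIP1, which encodes another kinesin, had a mean of 4.99 ± 0.50, on the side of the uracil biosynthesis strains. Since the CIN8 strain lies on the opposite side of 0 from these strains, no pool was assigned to either sign. A strain is called positive or negative where limma's moderated test of its mean against 0, with Benjamini-Hochberg adjustment over all 5204 strains, gave an adjusted p under 0.05. On all 3 arrays the pools differed in the CIN8 deletion, in medium and 5-FOA, and in dye. A call therefore cannot tell these apart and is not by itself a genetic interaction with CIN8.

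Most mitochondrial ribosomal protein strains lay slightly above 0, but few stood far from it. Of the 67 strains, 45 had a mean above 0 (67.2%), against 44.6% of all strains tested. Any deletions that cannot grow as haploids were not set apart in all strains tested. Their median was 0.30, with an interquartile range from -0.17 to 0.58, against a median of -0.10 and a range from -0.68 to 0.35 for all strains. Without centring the medians were 0.13 and -0.26, and with the tag value nearer 0 they were 0.15 and 0. The median on the arrays of experiments 1, 2 and 3 was 0.27, 0.25 and 0.32 for the mitochondrial ribosomal protein strains, against -0.06, -0.05 and -0.07 for all strains. The difference between these medians was 0.34, 0.30 and 0.39, or 0.34 ± 0.05 (SD, n = 3). It had the same sign on each array and exceeded its SD, but the arrays read the same strains. The difference was less than the SD across strains, 0.80 for the mitochondrial ribosomal protein strains and 0.98 for all strains. In tag A the difference was 0.25 ± 0.04, and in tag B 0.38 ± 0.08.

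**Figure D1:**
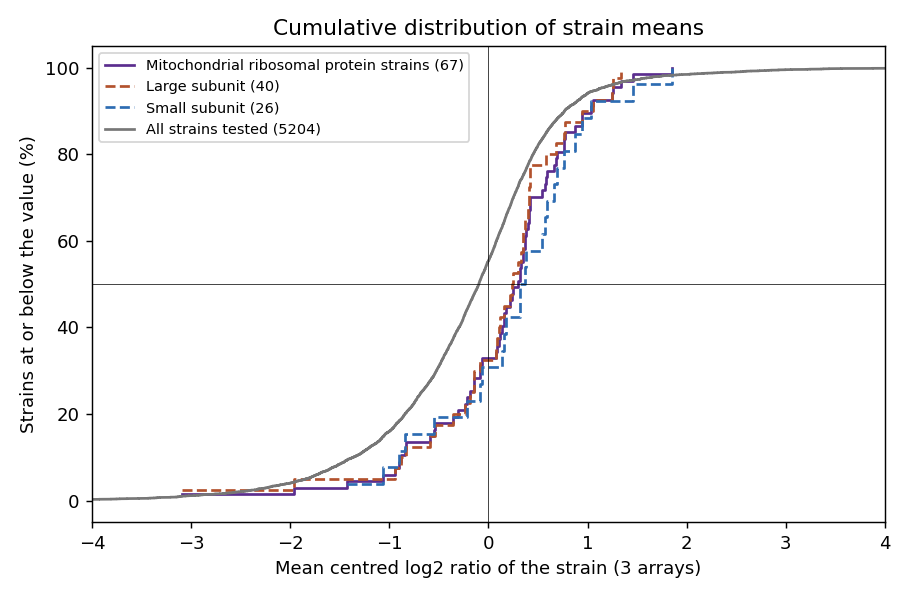
Cumulative distributions of the mean centred log2 ratio (x axis, mean of 3 arrays) for the 67 mitochondrial ribosomal protein strains, the 40 large subunit strains, the 26 small subunit strains and all 5204 strains tested; the y axis is the percentage of strains at or below the value. The curve of the mitochondrial ribosomal protein strains crosses 50% at 0.30, against -0.10 for all strains.

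The same sign on all 3 arrays was seen in 42 of the 67 strains (62.7%), against 70.5% of all strains. It was positive in 29 (43.3%), against 32.6%, and negative in 13 (19.4%), against 37.9%.

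The test called 15 of the 67 strains, or 22.4%, against 33.6% of all strains. It called 10 positive (14.9%), against 16.2% of all strains, and 5 negative (7.46%), against 17.4%. The positive share thus lay near that of all strains, and the negative share below it. Without centring, 8 of the 67 were called positive and 6 negative, and in all strains the split was 602 positive and 1261 negative, against 842 and 906 with centring. An unadjusted p under 0.05 was found in 30 of the 67 (44.8%), against 49.8% of all strains. A mean at least 2-fold from 0 was found in 11 of the 67 strains (16.4%), against 22% of all strains. It was both called and at least 2-fold in 6 (8.96%), against 14.8%. All of these calls rest on having 3 arrays. With any 1 of experiments 1, 2 or 3 left out, limma called 0 of the 67 strains, with 18, 26 and 25 at an unadjusted p under 0.05, and it called 0 of all 5204 strains. With the 5-FOA percentage as a covariate it called 0 of the 67, against 228 of all strains, with 24 of the 67 at an unadjusted p under 0.05. The shares of all strains at that unadjusted p were not counted in these settings.

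The spread between arrays was wider among these strains than in the whole set. The median SD over the 3 arrays was 0.36 for the mitochondrial ribosomal protein strains, against 0.23 for all strains. Across the 67 strains, which share arrays and pools, Pearson's r between pairs of arrays was 0.51 to 0.63, against 0.63 to 0.69 across all strains. The arrays gave no intensities, so that the signal behind each ratio is unknown, and its part in the wider spread was not tested.

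**Figure D2:**
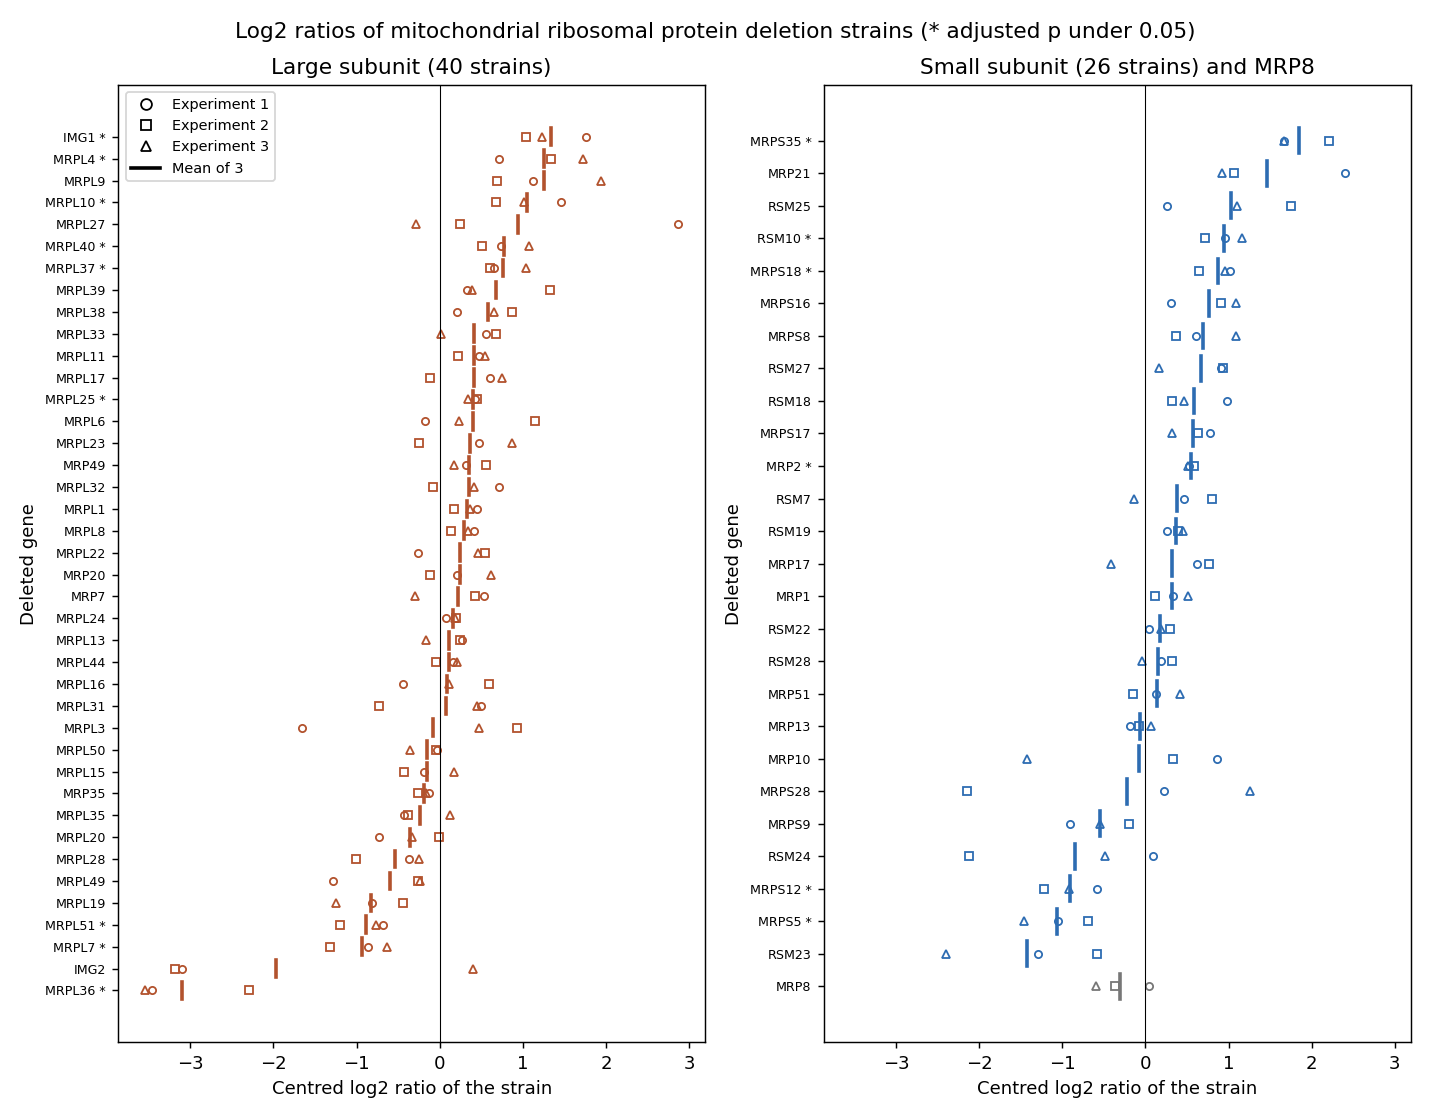
Centred log2 ratio (x axis) of each of the 67 strains on the arrays of experiments 1 (circles), 2 (squares) and 3 (triangles), with the mean of the 3 as a vertical bar; the large subunit is on the left, the small subunit and MRP8 on the right, and an asterisk marks an adjusted p under 0.05. Means ran from -3.10 (MRPL36) to 1.34 (IMG1) in the large subunit and from -1.43 (RSM23) to 1.85 (MRPS35) in the small subunit.

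In the small subunit 4 strains were called positive, and 3 of them by both tags. MRPS35 encodes a protein of the small subunit that has no counterpart in bacteria, and its strain had the highest mean of all 67. The strain stood at 1.67, 2.21 and 1.66 in experiments 1, 2 and 3, with 1.89, 3.09 and 2.15 in tag A and 1.45, 1.33 and 1.17 in tag B. All 6 tag values were thus above 1. The mean was 1.85 ± 0.32, or 3.60-fold from 0 (limma, adjusted p = 0.0136), and each tag was called by itself (adjusted p = 0.0153 for A and 0.0119 for B).

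MRPS18 and MRP2 encode counterparts of bacterial small subunit proteins, and their deletion gave smaller ratios that repeated closely. MRPS18 stood at 1.02, 0.64 and 0.96, or 0.87 ± 0.20 (adjusted p = 0.0221 in limma), with 0.94 in tag A and 0.81 in tag B. MRP2 stood at 0.53, 0.59 and 0.52, or 0.54 ± 0.04 (adjusted p = 0.0265), with 0.50 and 0.59 in its tags. Both tags of each strain were called positive. The 2 tags of MRPS18 and of MRP2 differed by 0.13 ± 0.20 and -0.09 ± 0.24 (A minus B), less than the spread between arrays.

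RSM10, also the counterpart of a bacterial protein, stood at 0.96, 0.72 and 1.17, or 0.95 ± 0.22 (adjusted p = 0.0212 in limma). Its tags were less even. Tag A gave 0.96, 1.37 and -0.08, whereas tag B gave 0.96, 0.06 and 2.42, so that the high array of each tag was the low array of the other. Neither tag was called alone (adjusted p = 0.158 in tag A and 0.167 in tag B).

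The other strains at the upper end of the small subunit did not pass the test. MRP21 stood at 2.40, 1.07 and 0.92, with a mean of 1.46 ± 0.81 (adjusted p = 0.0583). Its tag A values were even, at 1.17, 1.07 and 1.03 (adjusted p = 0.0105), and its tag B had 3.63 in experiment 1, no value in experiment 2 and 0.80 in experiment 3. RSM25 stood at 0.26, 1.75 and 1.10 (adjusted p = 0.0953), with a tag A value of 2.72 in experiment 2 against -0.29 and 0.31 in experiments 1 and 3. MRPS16, MRPS8, RSM27, RSM18 and MRPS17, with means of 0.57 to 0.77, were above 0 on every array and had adjusted p-values of 0.0505 to 0.0892. These 5 strains were chosen after their values were seen.

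At the lower end of the small subunit, MRPS5 and MRPS12 were called negative, but each rested on tag A. MRPS5 encodes the counterpart of a bacterial protein near the site where mRNA enters. Its strain stood at -1.05, -0.69 and -1.46, or -1.07 ± 0.38 (adjusted p = 0.0315 in limma). In tag A it read -3.46, -2.58 and -3.15, whereas tag B gave 1.36, 1.20 and 0.24. The 2 tags did not overlap, and their difference was itself past the threshold (adjusted p = 0.0254).

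MRPS12 encodes the counterpart of a bacterial protein at the decoding site that is known for its part in accurate decoding. The strain stood at -0.58, -1.22 and -0.92, or -0.91 ± 0.32 (adjusted p = 0.0320). Tag A gave -1.70, -3.32 and -2.39 and was called negative, and tag B gave 0.54, 0.89 and 0.54 and was called positive. MRPS12 was the 1 strain of 58 with both tags on all arrays that was called in opposite directions (1.72%), against 1.47% of all strains. RSM19 is its neighbour on chromosome XIV, the 1 pair of adjacent genes among the 67, and its strain stood at 0.25, 0.40 and 0.45, or 0.37 ± 0.10 (adjusted p = 0.0612).

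RSM23 had the lowest mean of the small subunit, at -1.29, -0.58 and -2.40 in the 3 experiments (-1.43 ± 0.92, adjusted p = 0.0761). Its tags changed place between arrays. Tag A gave -2.29 and 1.14 in experiments 1 and 2 and no value in experiment 3, whereas tag B gave -0.29, -2.31 and -2.40. MRPS9 had a mean of 0.23 in tag A, which did not pass the test (adjusted p = 0.361), and was called negative in tag B, at -1.34 (adjusted p = 0.0279). MRPS28 stood at 0.23, -2.14 and 1.26, with 1 tag value of -4.91, and its mean of -0.22 ± 1.75 was smaller than its SD. The small subunit strains nearest 0 with both tags on all arrays were MRP13 (-0.07 ± 0.12) and MRP51 (0.13 ± 0.28).

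In the large subunit 6 strains were called positive and 3 negative, and 0 of the positive ones were called by both tags. IMG1, named for its role in keeping the mitochondrial genome, encodes the counterpart of a bacterial protein at the interface between the subunits. The strain stood at 1.76, 1.03 and 1.22, or 1.34 ± 0.38, 2.53-fold from 0 (adjusted p = 0.0217 in limma). Tag B gave 1.56, 1.48 and 1.58 (adjusted p = 0.0093), and tag A gave 1.96, 0.58 and 0.86 (adjusted p = 0.0689). All 6 tag values were above 0.5.

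MRPL4 encodes the counterpart of a bacterial protein near the exit tunnel, and its strain is one of 3 with 6 spots for each tag. It stood at 0.71, 1.34 and 1.73, or 1.26 ± 0.51 (adjusted p = 0.0362). Tag B gave 1.20, 0.85 and 1.21, and tag A 0.22, 1.83 and 2.25. Within tag A the 6 spots ran from 0.13 to 0.33 in experiment 1, from 1.5 to 1.98 in experiment 2 and from 2.15 to 2.60 in experiment 3. The low value of experiment 1 was thus shared by all spots of that tag, and the 3 arrays did not overlap.

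MRPL10 stood at 1.45, 0.68 and 1.02, or 1.05 ± 0.39 (adjusted p = 0.0324), with 1.09 in tag A and 1.01 in tag B. Its tag A was uneven, at 2.14, 0.37 and 0.78, and was not called (adjusted p = 0.114 in limma), whereas tag B was called (adjusted p = 0.0207). MRPL9, whose bacterial counterpart lies close to the site of peptide bond formation, had a higher mean that missed the threshold. It stood at 1.12, 0.69 and 1.94, or 1.25 ± 0.64 (adjusted p = 0.0510), and tag B alone was called (1.26, adjusted p = 0.0141). MRPL40, the counterpart of another protein near the exit tunnel, stood at 0.74, 0.50 and 1.07 (0.77 ± 0.29, adjusted p = 0.0376), with tag A at 1.14 and tag B at 0.40. MRPL37, which has no bacterial counterpart, stood at 0.65, 0.60 and 1.04 (0.76 ± 0.24, adjusted p = 0.0314), with 0.80 and 0.73 in its tags.

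MRPL25 was the called strain nearest 0, at 0.43, 0.45 and 0.34 (0.40 ± 0.06, adjusted p = 0.0449). Without centring, which moves every strain by about the array medians of -0.15 to -0.17, MRPL25 stood at 0.24 (adjusted p = 0.116) and MRPL40 at 0.61 (adjusted p = 0.0560), and neither was called. The other 8 positive strains were called in that setting too. Strains just outside the threshold included MRPL9 on the positive side and MRPL19 on the negative side. MRPL19, the counterpart of a bacterial protein of the factor-binding stalk base, stood at -0.81, -0.44 and -1.25 (-0.83 ± 0.40, adjusted p = 0.0521), with 0.01 in tag A and -1.68 in tag B.

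MRPL36, the counterpart of a bacterial protein that bridges the subunits, had the lowest mean of the 67 strains. The strain stood at -3.46, -2.29 and -3.54 (adjusted p = 0.0154 in limma). Its tag A gave -0.44, -0.68 and -0.59, whereas tag B gave -6.48, -3.89 and -6.49. The values in experiments 1 and 3 of tag B were at the lowest deposited ratio, 0.01, so that the mean of -3.10 is an upper bound and its SD is no measure of error. Both tags were called negative (adjusted p = 0.0313 for A and 0.0164 for B), and MRPL36 was the 1 strain of 58 with all 6 tag values below 0. With the values at the lowest ratio left out, the mean was -1.11 (adjusted p = 0.144) and the call was lost.

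MRPL7 and MRPL51 were the other strains of the large subunit called negative. MRPL7 encodes the counterpart of a protein of the central protuberance and stood at -0.86, -1.32 and -0.64 (-0.94 ± 0.35, adjusted p = 0.0346). Its tag A gave -2.21, -2.49 and -1.15, and tag B gave 0.49, -0.15 and -0.12. MRPL51 stood at -0.68, -1.20 and -0.76 (-0.88 ± 0.28, adjusted p = 0.0295), with -1.70, -2.40 and -1.57 in tag A and 0.34, 0.00 and 0.05 in tag B. In both strains tag A was well below 0 on every array and tag B was close to 0.

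IMG2 had the second lowest mean of the large subunit, but it did not pass the test. It stood at -3.10, -3.18 and 0.39 (adjusted p = 0.171). For IMG2, tag A gave -0.73, 0.11 and 0.39, and tag B gave -5.48 in experiment 1, -6.48 at the lowest ratio in experiment 2 and no value in experiment 3. The strain value of experiment 3 thus rests on tag A alone. MRPL31 (0.07 ± 0.70) and MRPL16 (0.09 ± 0.52) were the large subunit strains nearest 0 with both tags on all arrays, and in both the SD exceeded the mean. Without centring MRPL31, MRPL16 and MRP51 lay below 0, at -0.09, -0.08 and -0.03. MRPL31 had tags of -1.10 and 1.25.

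A total of 52 strains were not called, 35 with a mean above 0 and 17 below. Of the 52, 34 had a mean within 0.5 of 0. Among the 52, 15 had an adjusted p from 0.05 to 0.1, and 12 of them were above 0. The share of all strains in this band was not counted, so no lean of the members is read from it. MRPL22 had no value in tag A and rested on tag B, at -0.27, 0.55 and 0.46. MRPL39 had 2 spots per tag with 1 gene name, and the sources used here do not say whether these are the same strain. Its tag B averaged 2.45 in experiment 2, against 0.25 and 0.56 in experiments 1 and 3, and its mean was 0.68 ± 0.56. MRP8, the strain outside both subunits, stood at 0.04, -0.37 and -0.60 (adjusted p = 0.218), with tag B at -0.48, -0.92 and -1.61 and tag A at 0.56, 0.18 and 0.41. Its 6 spots per tag did not overlap between the tags on any array.

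Tags A and B differ in sequence, so that each deletion is read separately by each of them on the same array. Among the 58 mitochondrial ribosomal protein strains with both tags on all arrays, 4 were called in the same direction by both tags (6.90%), against 16.9% of all strains. MRPS35, MRPS18 and MRP2 were positive (5.17%, against 11.2%), and MRPL36 was negative (1.72%, against 5.71%). All 6 tag values were above 0 in 15 of the 58 strains (25.9%), against 25.2% of all strains, and all 6 were below 0 in 1 (1.72%), against 19.1%. Tags of opposite sign were found in 19 of the 58 (32.8%), against 26.9% of all strains.

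Tag A called 6 of 62 strains positive (9.68%), against 18.9% of all strains, and 6 negative (9.68%), against 15.6%. Tag B called 16 of 62 positive (25.8%), against 18.2% of all strains, and 3 negative (4.84%), against 14.9%. The positive calls in tag B included MRP7, which encodes the counterpart of a bacterial protein at the peptide bond site. MRP7 gave 1.57, 1.70 and 1.29 in tag B but -0.51, -0.85 and -1.89 in tag A, so that its strain mean was 0.22 ± 0.45. The difference between the tags of MRP7 was -2.60 ± 0.56 (limma, adjusted p = 0.0311).

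The difference between tags passed the test in 6 of the 58 strains (10.3%), against 7.22% of all strains. The 6 were MRPS5, MRPS12, MRPL36, MRP7, MRPL51 and MRPL33, and in all but MRPL36 tag A was the lower. A difference of more than 2 between the tags was found in 9 of the 58 (15.5%), against 6.41% of all strains. Across the 58 strains, which share arrays and pools, the tags had a Pearson's r of 0.13 and a Spearman's rho of 0.34, against 0.48 and 0.56 across all 4293 strains with both tags. The median absolute difference between the tags was 0.35 in the mitochondrial ribosomal protein strains and 0.33 in all strains, so that the typical gap was close to that of the whole set.

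**Figure D3:**
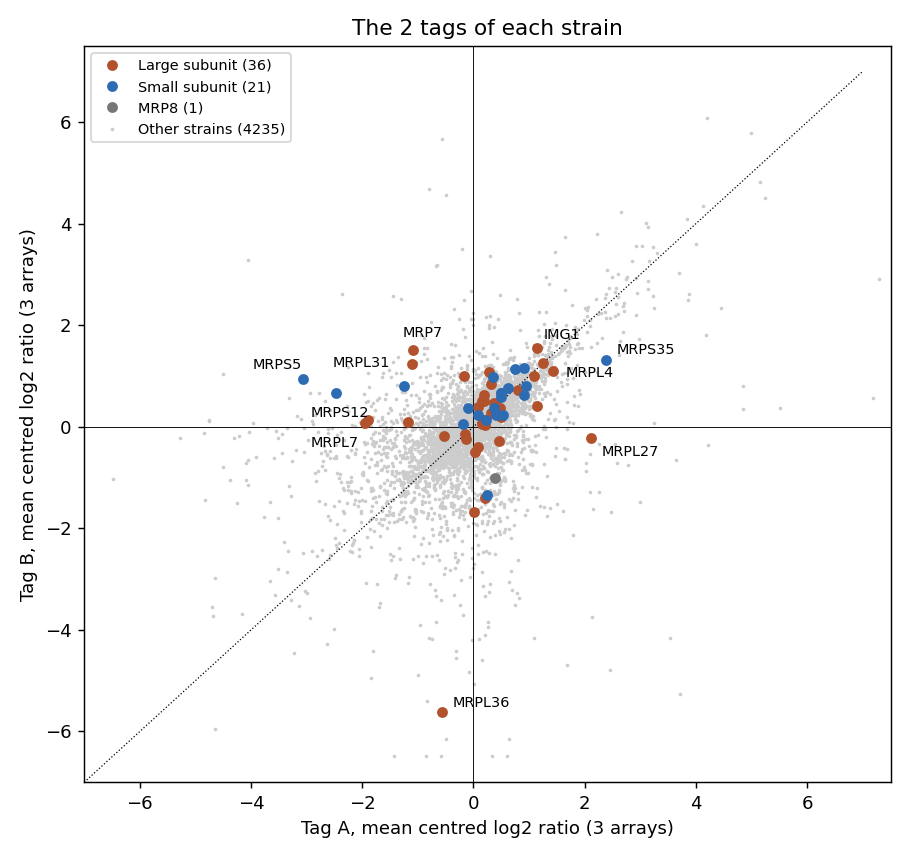
Mean centred log2 ratio over 3 arrays in tag A (x axis) and tag B (y axis) for strains measured by both tags on every array: 36 of the large subunit, 21 of the small subunit, MRP8, and the other strains in grey; the dotted line marks equal tags. MRPS35 lies at 2.38 and 1.32, while MRPS5 and MRPS12 lie left of 0 in tag A and above 0 in tag B, and MRPL36 lies at -5.62 in tag B.

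The large and small subunits were then compared. The median of the large subunit strains was 0.24, 0.19 and 0.29 in experiments 1, 2 and 3, against 0.32, 0.35 and 0.37 for the small subunit strains. The large minus small difference was -0.08, -0.17 and -0.08, or -0.11 ± 0.05 (SD, n = 3). It was below 0 on each array and exceeded its SD, but it was small beside the spread within each subunit, where the SD across strains was 0.83 in the large subunit and 0.77 in the small subunit. In tag A the difference was -0.33, -0.35 and -0.01, and in tag B -0.20, -0.35 and -0.11. The difference between the medians of the strain means, which was -0.10, was -0.31 in tag A, -0.35 in tag B, -0.23 with the tag value nearer 0, -0.17 without experiment 2 and -0.33 without experiment 3. It was -0.10 without centring, -0.11 in strains with both tags on all arrays, and smaller in size without experiment 1. No p is given, since the strains of a subunit are not replicates.

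By calls of the strain mean the subunits had near equal shares. The large subunit had 6 positive strains of 40 (15%) and 3 negative (7.5%), and the small subunit had 4 positive of 26 (15.4%) and 2 negative (7.69%), beside 16.2% and 17.4% of all strains. Calls in the same direction by both tags were made in 1 of 36 large subunit strains (2.78%) and 3 of 21 small subunit strains (14.3%), against 16.9% of all strains. Means above 0 on all 3 arrays were found in 15 of 40 large subunit strains (37.5%) and 14 of 26 small subunit strains (53.8%), against 32.6% of all strains. An unadjusted p under 0.05 in limma was found in 14 of 40 large subunit strains (35%) and 16 of 26 small subunit strains (61.5%). The share of all strains was 49.8%. These differences were not tested.

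**Figure D4:**
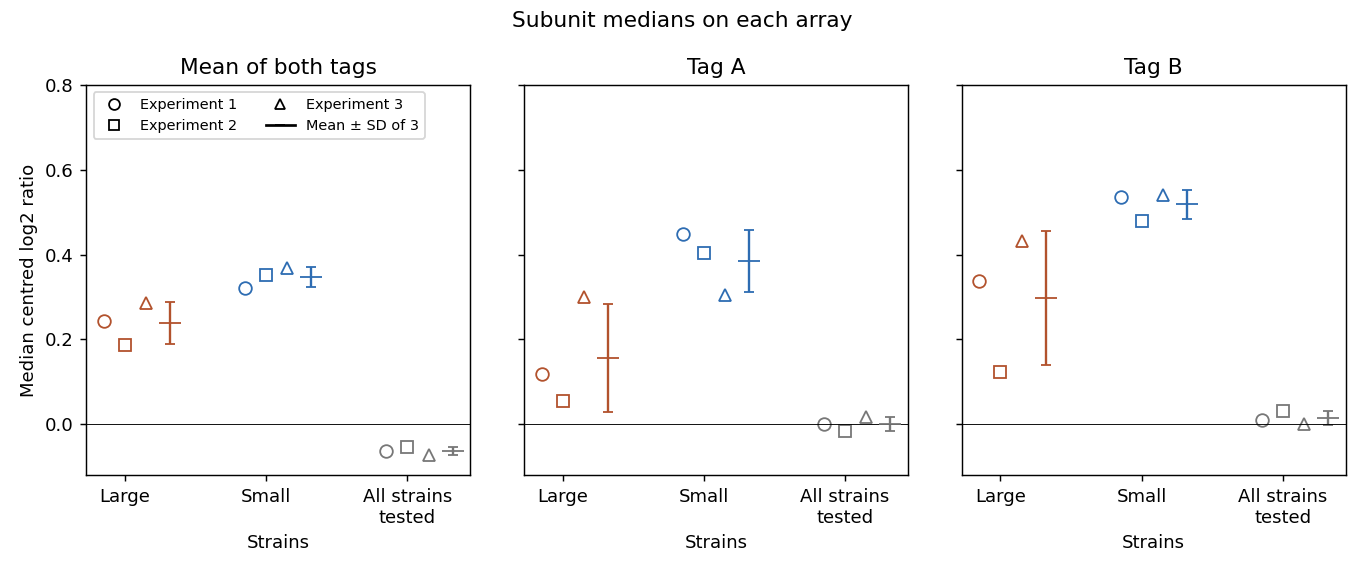
Median centred log2 ratio (y axis) of the large subunit strains, the small subunit strains and all strains tested on the array of each experiment, for the mean of both tags and for each tag set, with the mean ± SD of the 3 medians. For the mean of both tags the large subunit medians lie at 0.19 to 0.29 and the small subunit medians at 0.32 to 0.37, all above the medians of all strains at -0.07 to -0.05.

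Mitochondrial ribosomal proteins also differ in origin. By the systematic names in the RefSeq table, 41 of the 67 have a counterpart in bacteria, and 24 are specific to mitochondria. The strains with a bacterial counterpart had a median of 0.41, 0.40 and 0.41 on the 3 arrays, against 0.22, 0.05 and 0.16 for those specific to mitochondria. The difference was 0.26 ± 0.08 (SD, n = 3) and had the same sign on each array. It was 0.10 ± 0.06 in tag A and 0.26 ± 0.10 in tag B. The SD across strains was larger, at 0.81 for strains with a bacterial counterpart and 0.80 for those specific to mitochondria. Among the strains with a bacterial counterpart, 7 were called positive (17.1%, against 16.2% of all strains) and 4 negative (9.76%, against 17.4%). Among those specific to mitochondria, 3 were called positive (12.5%) and 1 negative (4.17%), beside the same shares of all strains. MRPS35, which had the highest mean, is specific to mitochondria.

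The genes lie on 14 chromosomes. RSM18 was the 1 member on chromosome V, which also holds CIN8, and it stood at 0.98, 0.32 and 0.47 (0.59 ± 0.34, adjusted p = 0.0791). Of the genes directly beside the 15 called members, 24 were tested, and 10 of these were called (41.7%, against 33.6% of all strains), 6 positive and 4 negative. The highest neighbour was NIP100, a dynactin gene beside MRPL40, at 3.29 ± 0.19. PEX8, a peroxisome gene beside MRPL25, stood at 1.60 ± 0.05, and PRP38, on the other side of MRPL25, at -2.35 ± 1.60, which did not pass the test (adjusted p = 0.0815). The lowest neighbours called were DUT1 beside MRPS5, at -1.80 ± 0.73, and SEC26 beside MRPL7, at -1.22 ± 0.35. These neighbours were named after their values were seen. The part of neighbouring genes in the ratios of the members was not tested. Which of the 5204 deletions can grow as haploids was not examined, and no strain was left out on that ground.

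Genes that work with the mitochondrial ribosome were set beside it, by lists drawn from textbook knowledge. A further 12 mitoribosomal proteins have names outside the symbol rule, and their strains had 1 positive call (8.33%, against 16.2% of all strains), 2 negative calls (16.7%, against 17.4%) and a median of -0.15. QRI5, also known as COX24, was called positive by both tags, at 0.98, 0.89 and 1.14 (adjusted p = 0.0149 in limma). SWS2, the counterpart of a bacterial small subunit protein, stood at -1.73 ± 0.13 with tags of -4.51 and 1.04, called in opposite directions, as in MRPS12. MRX14 stood at -0.80 ± 0.21, with -1.80 in tag A and 0.20 in tag B.

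The strains of mitochondrial tRNA synthetases, which charge the tRNAs used by the ribosome, had a median of 0.59. Of the 13 strains, limma called 3 positive (23.1%, against 16.2% of all strains) and 0 negative (0%, against 17.4%). MSM1 stood at 1.04 ± 0.20, with tags of -0.05 and 2.12, MSE1 at 0.68 ± 0.21 and MSW1 at 0.60 ± 0.23. The 16 strains of translation factors and ribosome assembly had a median of 0.11, with 3 called positive (18.8%, against 16.2% of all strains) and 1 negative (6.25%, against 17.4%). GUF1, a translation elongation factor, was the one called by both tags, at 0.68 ± 0.24, beside MRM1, an rRNA methyltransferase (0.85 ± 0.31), MTG1, an assembly GTPase (0.67 ± 0.25), and SUV3, an RNA helicase (-0.62 ± 0.23). The tags of SUV3 were -1.24 and 0.005, and those of MTG1 were 0.42 and 0.92. MRM1 stood at 0.31 in tag A, which was not called, and its tag B was not measured on every array.

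Activators of single mitochondrial mRNAs gave 3 positive calls among 15 strains (20%, against 16.2% of all strains), 2 negative calls (13.3%, against 17.4%) and a median of -0.08. PET111, which acts on the mRNA of a cytochrome oxidase subunit, stood at 0.92 ± 0.25, and CBP1, which acts on cytochrome b mRNA, at 0.77 ± 0.25, called by both tags. PET494 stood at -2.75 ± 0.27, with tags of 0.64 and -6.15 called in opposite directions. Its tag B mean is near the lowest deposited log2 ratio, -6.64 before centring, so the SD may be no measure of error. The 32 strains of respiratory chain and ATP synthase subunits gave 5 positive calls (15.6%, against 16.2% of all strains) and 4 negative (12.5%, against 17.4%) around a median of 0.07. Among them CYT1 (-1.44 ± 0.10) and COX9 (-0.95 ± 0.15) were called negative and COX5B (0.84 ± 0.16) positive, each by both tags, and ATP3 (-1.94 ± 0.61) was called negative. The 8 strains of mitochondrial DNA maintenance and expression had a median of 0.13, with MIP1, the DNA polymerase, at 0.81 ± 0.37 and RIM1, a single-strand binding protein, at 0.55 ± 0.04, both called positive (25%, against 16.2% of all strains), and 0 called negative.

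The ratios were finally set against the 5-FOA concentration, which differed between the experiments. In limma's fit of a slope 0 of the 67 strains were called, and 0 of all strains (0%). An unadjusted p under 0.05 was found in 3 of the 67 (4.48%), against 5.05% of all strains. These were MRPL4, MRPL27 and MRP10, with slopes of 1.02, -3.15 and -2.28 per 0.1% and adjusted p-values of 0.978 each. MRPL27 stood at 2.87, 0.25 and -0.28 at 0.1, 0.15 and 0.2%, with tag A at 2.84, 2.16 and 1.34 and tag B at 2.89, -1.67 and -1.91. MRP10 had a single tag A value, -3.89 at 0.2%, and its tag B gave 0.86, 0.33 and 1.03, so that the strain means of different arrays come from different tags. The concentration and the experiment cannot be told apart, since each was used once.

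**Figure D5:**
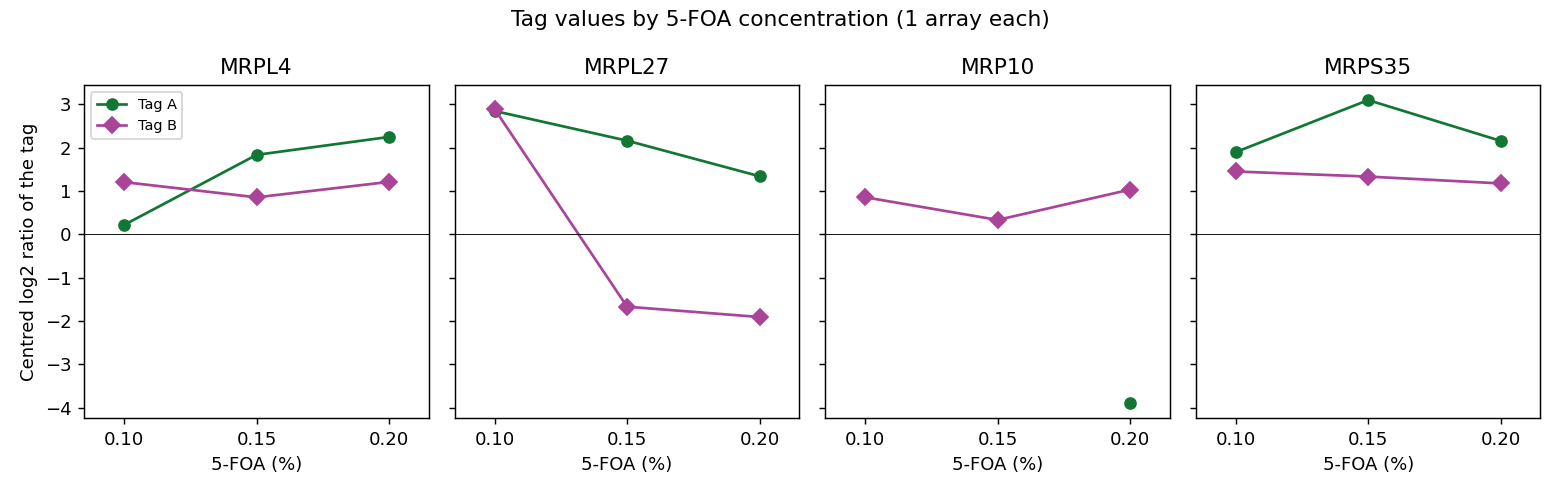
Centred log2 ratio (y axis) of tag A (circles) and tag B (diamonds) against the 5-FOA concentration in % (x axis, 1 array each) for MRPL4, MRPL27, MRP10 and MRPS35. In MRPL4 tag A runs from 0.22 to 2.25 while tag B stays between 0.85 and 1.21, and in MRPS35 the tags lie between 1.17 and 3.09.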

How the data were processed

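For each array the authors deposited a table with a log2 ratio at every probe. Scans were quantified in GenePix 5.1, per the labels. The formula, normalization, filters and direction of the ratio are not given in the sources used here. The deposited columns had medians of -0.17, -0.15 and -0.15. A total of 36 values at a ratio of 999999 were left out as placeholders, 0 of them in the members. The lowest ratio, 0.01, was kept. Genes were named from the platform annotation, matched to RefSeq (assembly R64) by gene identifier. Named probes formed 9397 pairs of the same gene 10971 identifiers apart, taken as the 2 tags of each strain. Which block holds the upstream tags is not given in the sources used here.

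Within an array, the median of each tag block was subtracted, repeated spots were then averaged, and the strain value was the mean of tags A and B. A strain value with 1 tag empty on an array rests on the other tag. Strain means were set against 0 by limma 3.58.1 (R 4.3.3) (lmFit on an intercept, eBayes, two-sided, Benjamini-Hochberg over all strains tested). The same fit was run on each tag and on the difference between tags. On simulated data for the 5204 strains, with the arrays' own SD per strain, the test called 46 of 100 strains changed by 1 and 59 of 100 changed by 2 on the log2 scale, and 8 of 5004 unchanged strains. The changed share was far below the 33.6% of strains called in the data. The cut-off of the adjustment depends on that share, so these rates need not hold for the calls given here. Tables and plots used Python 3.11.15, pandas 2.3.3, numpy 2.4.6 and matplotlib 3.10.9.

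The members, lists and tests were chosen with earlier results of these data known. Named members are those called, those called by both tags, the 3 highest and 3 lowest means of each subunit, the 5 largest differences between tags and the 2 nearest 0 of each subunit with both tags. Called strains of other lists were named up to 4 per list. Further members, such as MRPS9, MRPS28, MRPL19, MRPL22, MRPL27, MRPL39, MRP8, MRP10, RSM18 and RSM19, were named after their values were seen. MRP35 was added to the large subunit from its RefSeq name. Alternatives covered the centring, the tags, repeated spots, the lowest ratio, placeholders, the 5-FOA covariate and leaving out each array.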

Additional observations from a re-analysis of the deposited data

How the results depend on the processing

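The number of arrays sets the limit on every call. Leaving out any 1 experiment gave 0 positive, 0 negative and 0 calls by both tags (0 to 0 each), with medians of 0.25 to 0.27 for all members, 0.19 to 0.25 for the large subunit, 0.32 to 0.52 for the small subunit and -0.33 to -0.077 for large minus small. The 5-FOA covariate, which takes 1 of 2 residual degrees of freedom, gave 0 positive, 0 negative and 0 by both tags. Tag A alone gave 6 positive calls, medians of 0.26, 0.18 and 0.49 (members, large, small) and a difference of -0.31. Tag B alone gave 16 positive and 3 negative calls, medians of 0.39, 0.31 and 0.66 and a difference of -0.35, and there MRPL51 (0.13), MRPL7 (0.073), MRPS12 (0.66) and MRPS5 (0.93) changed sign. The tag value nearer 0 gave 5 positive calls and 1 negative, a median of 0.15 for members and 0.10 for the large subunit, and a difference of -0.23. In that setting 8.96% of members were called, against 11.4% of all strains. Strains with both tags on all arrays gave 16 positive calls among 58 members, against 1019 among 4293 strains, and a small subunit median of 0.38. Counting both directions, 37.9% of members were called there, against 44.9% of all strains. Without centring the medians were 0.13, 0.079 and 0.18, the median of all strains was -0.26, and the gap between members and all strains remained 0.39. In the other settings each of these counts stayed within 1.5 times and each median within 1 SD over the arrays. The cause of these shifts was not tested. Each array compares both pools of 1 experiment, so that the test of the ratio against 0 already uses this pairing. No further pairing was possible, since there is 1 group of arrays. Signal over background cannot be given, since intensities were not part of the files used here. With the lowest ratio left out, MRPL36 was not called and MRPL19 was.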
